A study of Mus musculus with 39 samples.

Results

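The libraries described here are 12 single blastomeres of mouse embryos at the 4-cell stage. They come from 3 embryos, numbered 2, 3 and 4 in the labels, each separated into its 4 sisters, and were chosen by label and batch alone, as 12 of the 39 libraries and 3 of the 19 embryos of the series. The study compared whole and separated embryos at the 2-cell and 4-cell stage by RNA sequencing. All embryos are labelled wild type (WT) and no treatment is given; strain, age in hours and culture after separation are not given in the sources used here. Beside the 12 sisters of batch 1, use is made of the 8 sisters of separated 4-cell embryos 6 and 7 (batch 2), the 10 blastomeres of 5 separated 2-cell embryos (batch 1) and 4 intact 4-cell embryos (batch 1), each intact embryo being 1 library.

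A blastomere is one of the large cells into which the fertilised egg divides without growing. In the mouse, the main wave of zygotic transcription comes at the 2-cell stage, while many transcripts stored in the oocyte are being degraded. Sisters at the 4-cell stage look alike, and studies in the mouse have linked uneven levels of regulators such as Sox21, Prdm14 and Carm1 among them to a later bias of their descendants towards the inner cell mass or the trophectoderm. The question addressed by these libraries is how far the transcripts of sisters differ, and whether sisters are more alike than blastomeres of different embryos.

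The 12 libraries held 2404473 to 5232474 counts and 7939 to 9936 genes with at least 1 count, and mitochondrially encoded genes took 15.7 to 27.1% of the counts. Each blastomere was measured once and the protocol counts PCR copies of cDNA. A difference between sister cells and a difference in how much of a transcript was captured therefore cannot be told apart for any single gene. All 12 embryo markers had a count in at least 1 library and 4 of them in all 12 libraries. Their summed levels were 21685 to 39190.0 CPM (counts scaled to a common library size) in a library. Of the markers of other cells, 1 of 12 for cumulus and granulosa cells, 2 of 6 for sperm, 2 of 6 for oviduct and 3 of 8 for blood had a count. Cumulus markers summed to at most 0.320 CPM, sperm markers were at 0 in all libraries except embryo 4 blastomere 4 (31.7 CPM), and oviduct markers summed to 0 to 104.9 CPM, mostly Epcam, which early embryos also express. The haemoglobin gene Hba-a1 stood at 12.3, 81.7, 39.9 and 49.8 CPM in the sisters of embryo 3, against 0 in each sister of embryo 2 and 2.50, 4.28, 1.96 and 0.296 CPM in those of embryo 4 (edgeR adjusted p = 0.117 between embryos).

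Nearly as many genes were seen in a single sister of an embryo as in all of its sisters. In embryo 2, 4439 genes had a count in exactly 1 sister, 2408 in 2, 1948 in 3 and 4672 in all 4, of 13467 with a count in any. Embryo 3 gave 4703, 2560, 2201 and 4964 of 14428, and embryo 4 gave 4692, 2500, 2098 and 4863 of 14153. Genes seen in 1 sister made up 32.96, 32.6 and 33.2% of those detected in embryos 2, 3 and 4, and genes seen in all 4 sisters 34.7, 34.4 and 34.4%. The 3 embryos thus differed by less than 1 percentage point in each of these shares. Many single-sister genes rested on few counts, with a median of 3, 2 and 3 counts in that sister, while 33.2, 29.7 and 31.2% of them had 20 counts or more there.

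**Figure D1:**
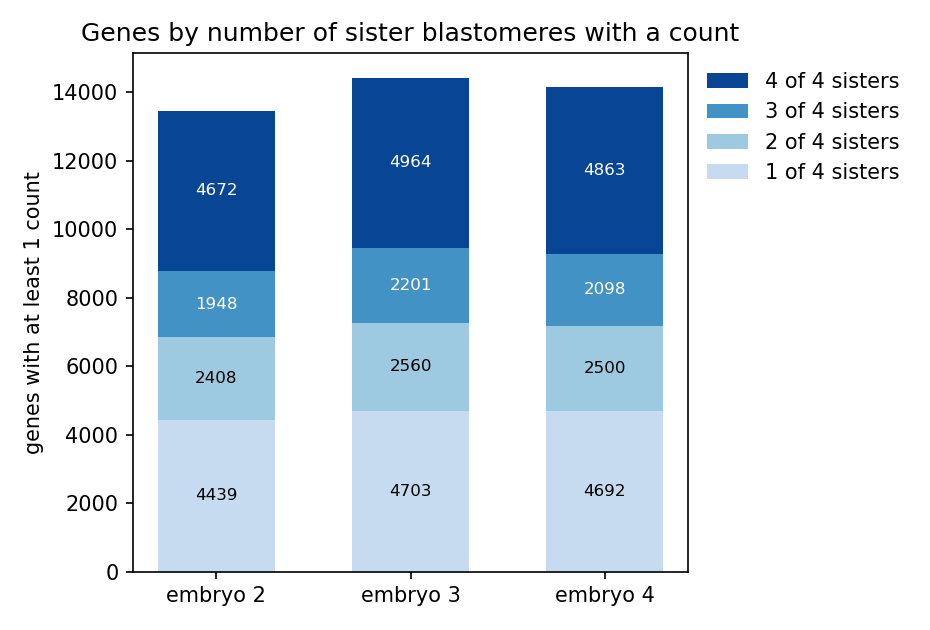
Number of genes (vertical axis) with at least 1 count in 1, 2, 3 or 4 sisters of each embryo, stacked from 1 sister at the bottom to 4 at the top. Each bar is 1 embryo of batch 1, and the bars reach 13467, 14428 and 14153 genes.

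Over the 12 libraries together, 3358 genes were seen in every blastomere and 4272 in a single one, of 18545 with any count. Another 453 genes were seen in exactly 1 sister of each embryo. Detection followed the level in whole embryos. Among genes at 1 to 3 CPM in intact 4-cell embryos, 8.64% were seen in all 4 sisters and 42.5% in no sister, averaged over the 3 embryos. The share seen in all 4 sisters was 14.9% at 3 to 10 CPM, 39.9% at 10 to 30 CPM, 80.8% at 30 to 100 CPM and 99.2% at 100 to 300 CPM. All 101 genes at 1000 CPM or more were seen in all 12 blastomeres. A single intact embryo, at 2738246 to 4194073 counts, showed 11447 to 12559 genes, more than any of the 12 blastomeres of batch 1. It showed fewer than the 4 sisters of an embryo combined, but these hold the counts of 4 libraries, and depth was not matched.

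Sisters of batch 2 shared more genes at the same depth. After each of the 30 single-blastomere libraries had been thinned to 2019180 counts, 33.4, 33.3 and 33.9% of the detected genes were seen in all 4 sisters of embryos 2, 3 and 4, against 52.3 and 51.5% in embryos 6 and 7 of batch 2. A thinned library of batch 1 showed 7386 to 9241 genes, against 11182 to 13173 in batch 2. Before thinning, batch 2 held 2019180 to 31576264 counts a library, and its mitochondrially encoded genes took 4.21 to 7.99% of counts. Batch cannot be told apart from embryo here, 3 against 2 embryos cannot reach an exact permutation p under 0.1, and no test of these shares was made.

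Some well-covered genes were missing from 1 sister of an embryo. The cytoplasmic 5′ to 3′ exoribonuclease gene Xrn1 stood at 153, 276, 0 and 622 CPM in the sisters of embryo 2, with no count in blastomere 3, and had counts in all sisters of embryo 3 (121, 139.7, 38.4 and 41.3 CPM) and of embryo 4 (53.8, 24.5, 31.1 and 123 CPM). Trappc4, a subunit of the TRAPP trafficking complex, had no count in embryo 3 blastomere 1 and 111, 329 and 134 CPM in its sisters, and was present in all 8 blastomeres of embryos 2 and 4. Fbxo11, an F-box subunit of a ubiquitin ligase, had no count in embryo 4 blastomere 3 and 218, 82.0 and 149 CPM in its sisters. Of these genes, Fbxo11 was near 0 in a second blastomere (0.662 CPM in embryo 2 blastomere 2), while Xrn1 and Trappc4 were above 20 CPM in all 11 others.

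The opposite case was a high count in a single sister. Coq10a, a coenzyme Q binding protein gene, had 338 CPM in embryo 2 blastomere 3 and no count in its sisters, and reached 17.2 CPM in embryo 4 blastomere 4. The non-muscle myosin gene Myo18a had 341 CPM in embryo 3 blastomere 3 alone of its sisters, while it stood at 0, 9.60, 47.4 and 0 CPM in embryo 2 and 47.8, 0.389, 0.560 and 56.9 CPM in embryo 4. The zinc finger gene Zfp64 had 244 CPM in embryo 4 blastomere 2 and at most 0.595 CPM in the other 11 libraries. Tmem37 was seen only in blastomere 4 of embryo 2 (282 CPM), in blastomeres 3 and 4 of embryo 3 (33.3 and 100.2 CPM) and in blastomeres 2 and 4 of embryo 4 (17.1 and 122 CPM). Blastomere numbers are names given by the study, so that blastomere 4 of different embryos need not be the same kind of cell.

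A gap between groups of sisters was called when the upper sisters each had at least 20 counts and stood at least 4-fold above the lower ones, with a floor of 1 CPM. With a single sister on top there were 3132 such genes in embryo 2, 3213 in embryo 3 and 2999 in embryo 4, which is 36.2, 35 and 33.2% of the 8655, 9168 and 9034 genes with 20 counts in a sister. Two-against-two genes numbered 1615, 1691 and 1520 (18.7, 18.4 and 16.8%), and genes low in a single sister 1340, 1466 and 1335 (15.5, 16 and 14.8%). Over the 4 intact 4-cell embryos, which are separate embryos, the same rule gave 1595, 731 and 835 of 10141 genes (15.7, 7.21 and 8.23%). Each kind of gap was called in a larger share of genes among the sisters of each embryo than among whole embryos. No test of this difference was made, since the intact libraries hold the pooled RNA of 4 cells.

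The 3 ways of splitting 4 sisters into pairs were used about equally by two-against-two genes. The most frequent split took 35.9% of them in embryo 2 (blastomeres 1 and 4 against 2 and 3), 38.02% in embryo 3 (1 and 4 against 2 and 3) and 35.4% in embryo 4 (1 and 2 against 3 and 4), and the least frequent 32.01, 30.9 and 30.8%. These shares join both directions of a split, and which pair was high was less equal. In embryo 3, blastomeres 2 and 4 were high in 21.1% of two-against-two genes, and 1 and 3 in 9.88%. Blastomeres 2 and 4 also had more detected genes (9646 and 9936) than 1 and 3 (8416 and 8284), whose part in this was not tested. Of the genes called in any embryo, 3004 were two-against-two in 1 embryo, 773 in 2 and 92 in all 3, with a median level of 11.8 CPM for those called once and 17.4 CPM for those called in all 3. The overlap that the shares per embryo would give by themselves was not worked out, so no recurrence is read from these counts. Of the 92 genes, 89 had a symbol that is not a predicted one. Among these 89, 43 of 74 measured in batch 2 lay above the trend of sister SD on level. At the 2-cell stage it was 35 of 60. The gene with the widest smallest gap over the 3 embryos, a choice made after the values were seen, was Ppp1r11, an inhibitory subunit of protein phosphatase 1. It stood at 39.8, 0, 0 and 111 CPM in embryo 2, 61.0, 0.541, 0.298 and 50.1 CPM in embryo 3 and 136, 44.7, 0 and 0 CPM in embryo 4. Blastomeres 1 and 4 were high in embryos 2 and 3, and blastomeres 1 and 2 in embryo 4.

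Cd300a, a receptor known from leukocytes, had 1.56, 126, 71.4 and 2.09 CPM in embryo 2, 51.3, 0.901, 67.3 and 0.677 CPM in embryo 3 and 215, 121, 0.560 and 0.889 CPM in embryo 4, a different split in each. The DNA repair genes Aptx and Fancd2 were of this kind as well. Aptx, which removes adenylate groups from broken DNA ends, stood at 48.5, 0, 139 and 0.232 CPM in embryo 2, with blastomeres 1 and 3 high. Fancd2, of the Fanconi anaemia pathway, stood at 2.25, 1.17, 29.1 and 68.8 CPM in embryo 4, with blastomeres 3 and 4 high. The widest gap of a single embryo was in Ggps1, a geranylgeranyl diphosphate synthase, with 1366, 0.389, 0.560 and 2479.5 CPM in embryo 4, where blastomeres 1 and 4 held nearly all counts.

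By gene group, two-against-two calls were absent from ribosomal protein and mitochondrially encoded genes. None of 79 ribosomal protein genes and none of 21 or 22 mitochondrially encoded genes was called in any embryo. Nuclear genes of oxidative phosphorylation had 7 of 82, 8 of 80 and 5 of 81 (8.54, 10 and 6.17%) in embryos 2, 3 and 4, and ribosome biogenesis genes 9 of 84, 4 of 85 and 5 of 85. Maternal oocyte transcripts had 14 of 47, 15 of 46 and 10 of 48 (29.8, 32.6 and 20.8%), beside the 18.7, 18.4 and 16.8% of all genes. The maternal list had a median level of 29.3 CPM, against 784 CPM for the ribosomal proteins, and level was not matched between lists. Its members with the largest mean sister SD were Fbxw16, Obox1 and Dnmt1. Dnmt1, the maintenance DNA methyltransferase, stood at 5.34, 74.5, 0 and 89.5 CPM in embryo 2, 0, 53.4, 5.95 and 34.2 CPM in embryo 3 and 0, 23.3, 49.9 and 22.5 CPM in embryo 4, with at least 1 sister of each embryo at 0. Fbxw16 and Obox1 belong to families of near-identical genes that may share reads, so their levels are uncertain.

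Most of the variation lay among sisters, not between embryos. Over the 5864 genes with a mean of at least 10 CPM, the median SD among sisters was 2.01 on the log2 CPM scale, against a median SD of 0.85 between the means of the 3 embryos, each of which averages 4 sisters. Embryos 2, 3 and 4 had median sister SDs of 1.60, 1.52 and 1.33. The intraclass correlation, the share of a gene's variance that lies between embryos and which an estimate can put below 0, had a median of 0.0313. It was above 0 for 53.3% of genes and above 0.5 for 541 genes. Sister spread fell with level. The median SD was 2.56 at 10 to 20 CPM, 1.63 at 50 to 100 CPM, 0.57 at 200 to 500 CPM and 0.28 at 1000 CPM or more, where the median intraclass correlation was 0.304.

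The genes most even among sisters, of 2311 with a mean of at least 50 CPM and a symbol, included Tma7, Rpl41, Rps26, Serf2, Set, Npm1, Ndufa4, Cep89 and Pin4. Rps26, a protein of the small ribosomal subunit, had 4072, 3118, 3563 and 3272 CPM in embryo 2, 2847, 2758, 3211 and 2939 CPM in embryo 3 and 2850.3, 3445, 3398 and 3129.5 CPM in embryo 4. Its sisters had a mean SD of 0.13 on the log2 scale, and no sister stood apart. Ndufa4, a protein of the respiratory chain, was nearly as even at a lower level, with 336, 445, 387 and 434 CPM in embryo 2, 212, 213, 272 and 253 CPM in embryo 3 and 226, 265, 242 and 189 CPM in embryo 4. The 10 most even genes were picked on the SD within each embryo, so it describes them only. In libraries not used to pick them they had a median sister SD of 0.21 in batch 2 and 0.29 at the 2-cell stage, against 0.55 and 1.56 over all genes. They are also highly expressed, and 3 of 10 lay above the trend of SD on level in each of those comparisons.

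The genes most uneven in all 3 embryos at 50 CPM or more were Use1, Trap1a, Ndufa9, Dynap, Vps72, Alox12, Exosc9, Rpap1, Mien1 and Tmem60. Ndufa9, a subunit of respiratory complex I, had 145, 24.5, 0.320 and 105 CPM in embryo 2, 1.21, 159.6, 0 and 133 CPM in embryo 3 and 0, 169.9, 41.5 and 28.2 CPM in embryo 4. At least 1 sister of each embryo was under 1 CPM while another was above 100 CPM. Rpap1, a factor bound to RNA polymerase II, ranged up to 1125 CPM, with 176, 82.7, 0.961 and 1125 CPM in embryo 2, 927, 37.1, 1.79 and 7.11 CPM in embryo 3 and 0.501, 138, 106 and 44.2 CPM in embryo 4. Exosc9, a subunit of the RNA exosome, was at or near 0 in 1 sister of each embryo, with 87.7, 98.9, 132 and 0 CPM in embryo 2, 0.484, 84.4, 108 and 91.8 CPM in embryo 3 and 95.4, 14.4, 253 and 0.296 CPM in embryo 4. In batch 2 these 10 genes had a median sister SD of 0.55, the same as all genes to 2 decimals, and 5 of 10 lay above the trend of SD on level. At the 2-cell stage 7 of the 10 could be measured and 5 of those lay above the trend. Across all genes, the rank correlation of SD minus trend was 0.108 between batch 1 and batch 2 sisters (5075 genes) and 0.215 between 4-cell batch 1 and 2-cell sisters (4604 genes); these are correlations over genes, which are not independent.

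**Figure D2:**
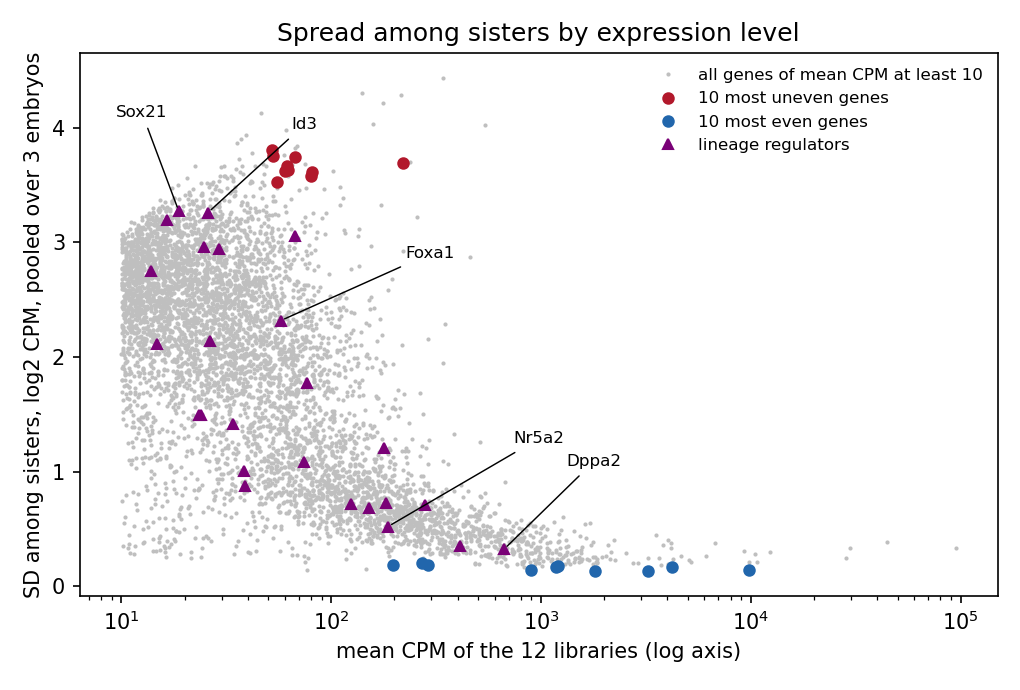
SD of log2 CPM among sisters, pooled over embryos 2, 3 and 4 (vertical axis), against mean CPM of the 12 libraries on a log axis, 1 point per gene for 5864 genes. The 10 most uneven and 10 most even genes, picked on the SD within each embryo, and the lineage regulators of mean CPM at least 10 are marked; Sox21 and Id3 lie among the most variable genes of their level, Nr5a2 and Dppa2 low in the cloud.

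Regulators of early lineage choice included even and uneven members. Of 47 listed, 40 had a count, 16 were seen in all 12 blastomeres, and 8 were seen in some but not all sisters of every embryo. Level was not matched between even and uneven regulators. Over all genes the median sister SD was 2.35 (log2) at 20 to 50 CPM, against 0.57 at 200 to 500 CPM. Absence of a gene of low level from a sister cannot be told apart from missed detection. Sox21, an SRY-box transcription factor on chromosome 14 (118233232 to 118237030, minus strand, GRCm38), had 67.9, 0, 0 and 0 CPM in the sisters of embryo 2, 9.20, 102, 0 and 0 CPM in embryo 3 and 3.01, 19.05, 0 and 24.01 CPM in embryo 4. It was high in 1 sister of embryo 2, in 1 of embryo 3 with a second at a lower level, and in 2 of embryo 4. Prdm14, a regulator of pluripotency and DNA methylation, had 0, 58.9, 0 and 0 CPM in embryo 2, 0, 0, 8.63 and 0 CPM in embryo 3 and 0, 109, 21.6 and 0 CPM in embryo 4. Its counts lay in 1 or 2 sisters of each embryo. Id3, an inhibitor of helix-loop-helix factors, had 14.5, 69.5, 0 and 0.695 CPM in embryo 2, 0, 0, 59.2 and 3.05 CPM in embryo 3 and 29.1, 0, 70.3 and 64.0 CPM in embryo 4. Prdm14 and Id3 were both highest in blastomere 2 of embryo 2 and blastomere 3 of embryo 3, and Id3 had no count in blastomere 2 of embryo 4, where Prdm14 was highest. Sox21 was highest in none of the sisters where Prdm14 or Id3 was.

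Foxa1, a pioneer transcription factor, was uneven in embryo 2 and even in embryo 4. It stood at 36.9, 133, 0.320 and 0.232 CPM in embryo 2, with blastomeres 3 and 4 near 0, at 75.7, 14.8, 49.1 and 112 CPM in embryo 3 and at 55.6, 73.5, 89.6 and 48.0 CPM in embryo 4. Klf17, a Krüppel-like factor, was missing from blastomere 4 of embryo 2 but for 0.232 CPM and otherwise lay between 32.03 and 136 CPM. Wwtr1 (TAZ), a coactivator of the Hippo pathway, had 108, 0, 66.0 and 0 CPM in embryo 2, 51.5, 6.13, 14.6 and 26.4 CPM in embryo 3 and 0, 0, 24.4 and 1.19 CPM in embryo 4. Its relative Yap1 had a count in every sister and ranged from 2.56 to 76.1 CPM. Tead4, the DNA-binding partner of both in the trophectoderm, was present in all 12 at 10.9 to 69.1 CPM.

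Among the more even regulators, Nr5a2, an orphan nuclear receptor active in genome activation, had 171, 107, 114 and 159.7 CPM in embryo 2, 279, 73.6, 146 and 134 CPM in embryo 3 and 258, 284, 196 and 313 CPM in embryo 4. Dppa2, which opens chromatin at zygotic genes, ranged from 325 to 1011 CPM with a mean sister SD of 0.30 (log2). Nanog, a pluripotency factor, was low but seen in every sister, at 5.63 to 22.97 CPM. Pou5f1 (Oct4) was seen only in blastomeres 1 and 2 of embryo 2, at 2.00 and 18.2 CPM. Carm1, the arginine methyltransferase studied in sister bias, had 1 library with a count (0.389 CPM), and Sox2 and Cdx2 had none, so their distribution among sisters was not detectable at this depth. The 25 members with a mean of at least 10 CPM had a median sister SD of 1.28 (mean over embryos), against 1.77 for all genes, at a like median level (38.8 and 37.96 CPM), and 14 of 25 (56.0%) lay below the trend of SD on level, against 51.6% of all genes.

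**Figure D3:**
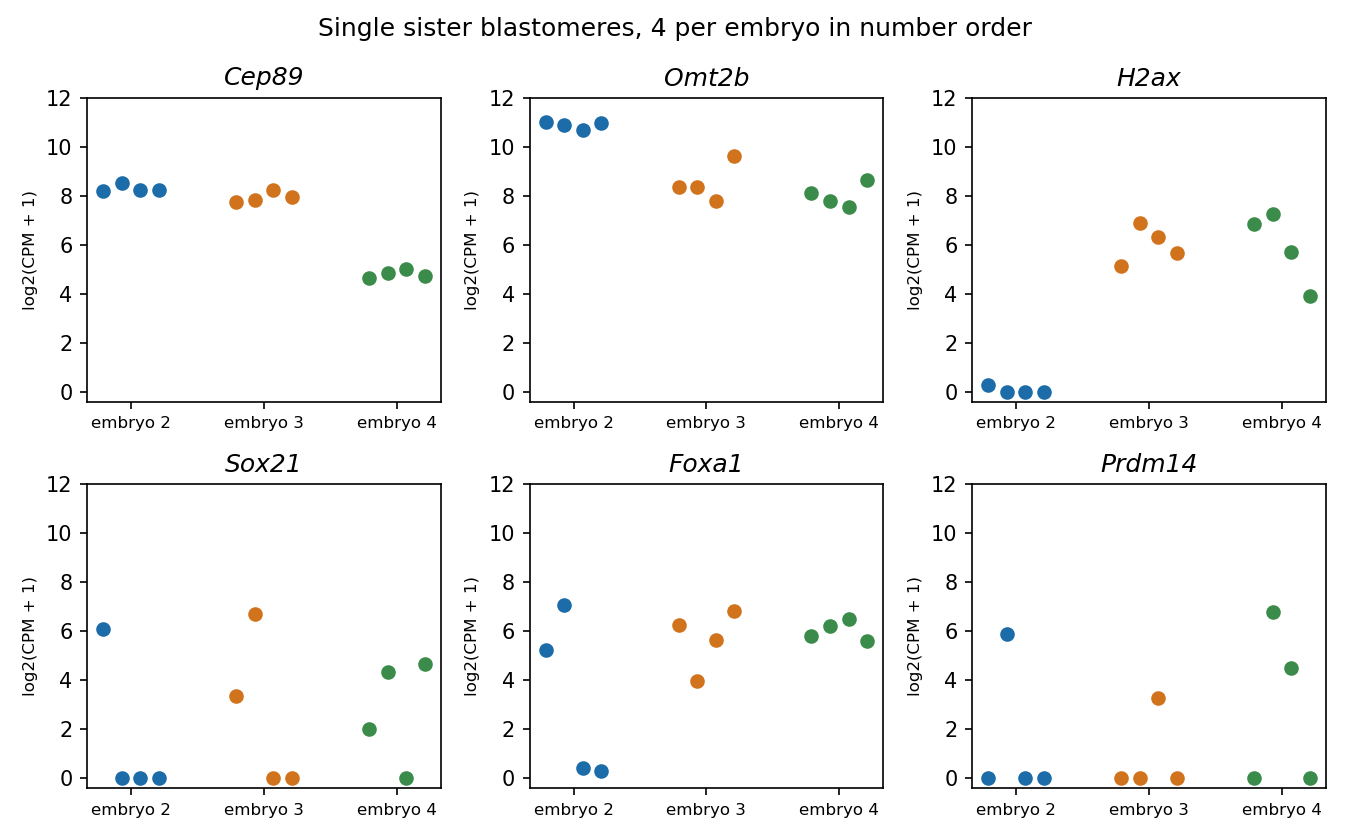
Level of 6 genes in single sisters, as log2(CPM + 1), with the 4 sisters of embryos 2, 3 and 4 side by side in number order. All sisters of embryo 4 are low in Cep89, all of embryo 2 are high in Omt2b and at or near 0 in H2ax, whereas Sox21 and Prdm14 are at 0 in some sisters of each embryo and Foxa1 is near 0 in 2 sisters of embryo 2.

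Genes that varied together were sought in the deviations of each library from the mean of its embryo. No axis stood out: the first principal component held 13.7% of the variance of these deviations, against 11.1% if the 9 free dimensions shared it equally, and the ninth held 9.21%. Among genes at 100 CPM or more the first component held 15.7%. The mean correlation of deviations between any pair of genes was 0.00254. Such correlations rest on 12 libraries that share their scaling within each library, and are given as descriptions.

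Mitochondrially encoded genes moved as a block. All 153 pairs among 18 of them had a positive correlation of deviations (mean 0.656, range 0.107 to 0.963). Their summed level was 174470.1, 310062, 207843 and 276036 CPM in the sisters of embryo 2, so that blastomeres 2 and 4 were high. It was 162019, 206264, 245868 and 176084 CPM in embryo 3 and 140436, 170914, 183668 and 241707 CPM in embryo 4. The highest sister exceeded the lowest 1.78-fold in embryo 2, 1.52-fold in embryo 3 and 1.72-fold in embryo 4. Single members were less variable than most genes, with a median sister SD of 0.36 (log2) at a median level of 926 CPM. Set against the trend of SD on level, 9 of 18 (50%) lay below it, against 51.6% of all genes. The nuclear genes of oxidative phosphorylation, whose proteins join the mitochondrially encoded ones in the same complexes, had a mean pairwise correlation of 0.00382. The mean deviations of both lists over the 12 libraries had a correlation of -0.0876.

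Ribosomal protein genes moved together less tightly. Of their 3081 pairs 2231 (72.4%) were positively correlated, with a mean of 0.201, and all 79 genes were seen in all 12 blastomeres. Their summed level was 81239, 75688, 78117 and 79430.0 CPM in the sisters of embryo 2, 72226, 69675, 84471 and 74792 CPM in embryo 3 and 71472, 80081, 90612 and 90793 CPM in embryo 4. The highest sister exceeded the lowest by 1.07-fold, 1.21-fold and 1.27-fold. They were the most even of the lists with 5 or more genes measured, with a median sister SD of 0.27 (log2), and 65 of 79 (82.3%) lay below the trend of SD on level. Proteasome subunits had a mean pairwise correlation of 0.0563, ribosome biogenesis genes -0.000869, G2/M genes 0.0223, S phase genes 0.00881, replication-dependent histones 0.139 and maternal oocyte transcripts 0.0918, beside 0.00254 for all genes. The mean deviation of the maternal transcripts was highest in blastomere 2 of embryo 2 (0.19, log2), blastomere 4 of embryo 3 (1.2) and blastomere 4 of embryo 4 (1.15). These libraries also had the most detected genes of their embryos (8740, 9936 and 9740), whose part in the result was not tested. The summed CPM of the maternal transcripts was highest in the same blastomeres of embryos 2 and 3 (40568 and 42011 CPM). In embryo 4 it was highest in blastomere 3 (30744 CPM), with 26389 CPM in blastomere 4.

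**Figure D4:**
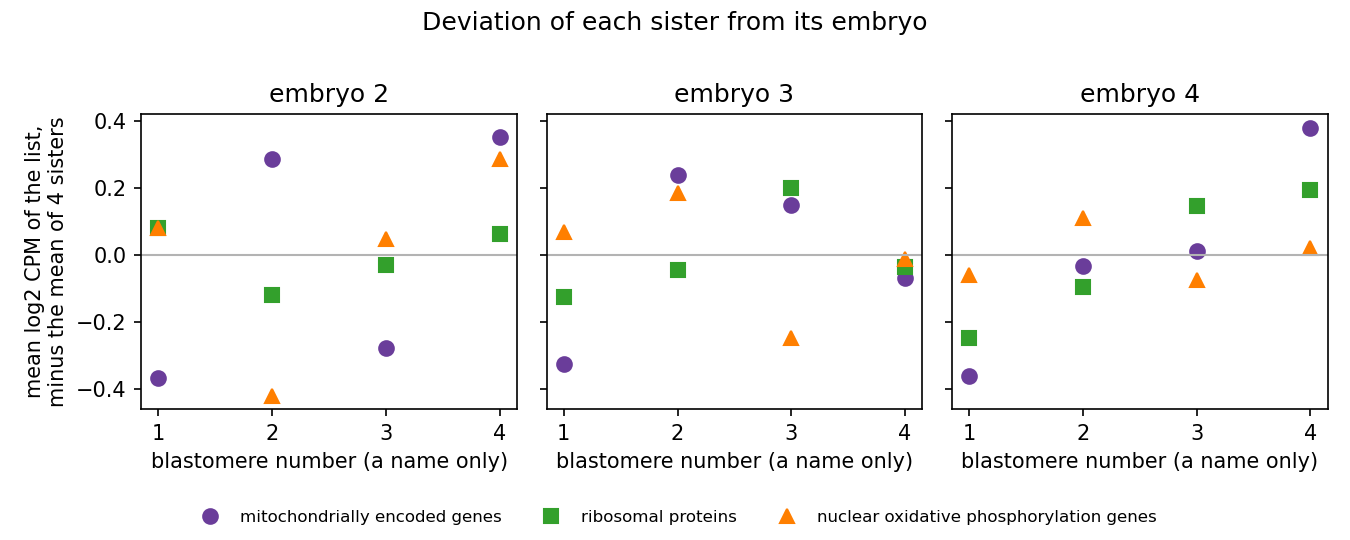
Mean log2 CPM of 3 gene lists in each blastomere minus the mean over the 4 sisters (vertical axis), for embryos 2, 3 and 4. Mitochondrially encoded genes range from -0.37 to 0.38, ribosomal proteins from -0.25 to 0.20, and the nuclear genes of oxidative phosphorylation have a correlation of -0.0876 with the mitochondrial ones.

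For single regulators, the genes most like them among 2311 of at least 50 CPM were found by the correlation of deviations over the 12 libraries. For Sox21 these were Nip7, a ribosome biogenesis factor (r = 0.931), Agpat5, an acyltransferase (0.894), and Cul3, a ubiquitin ligase scaffold (0.814). Agpat5 had 263, 56.9, 76.5 and 97.1 CPM in embryo 2, 289, 317, 102 and 168 CPM in embryo 3 and 208, 182, 109 and 277 CPM in embryo 4. It was highest in each embryo in the sister where Sox21 was highest. For Tead4 they were Ctdspl2 (0.883), Snx2 (0.883) and Nsd1 (0.876). As each is the best of 2311 over few libraries, the values describe these cells only.

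Sisters were nevertheless more alike than blastomeres of different embryos. The mean Pearson correlation of log2 CPM was 0.563 over the 18 sister pairs, against 0.529 over the 48 pairs from different embryos. The difference of 0.0341 had an exact permutation p of 0.000173 (one-sided), the smallest that the 5775 ways of dividing 12 libraries into 3 fours can give. For each of the 12 libraries, the closest other library was a sister. The ranges overlapped, at 0.531 to 0.599 for sisters and 0.497 to 0.570 for different embryos. The difference was 0.0522 among genes of 10 to 100 CPM, 0.0831 at 100 to 1000 CPM and 0.0404 at 1000 CPM or more, each with the same smallest p. Sisters share an embryo and its separation, and these cannot be told apart.

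**Figure D5:**
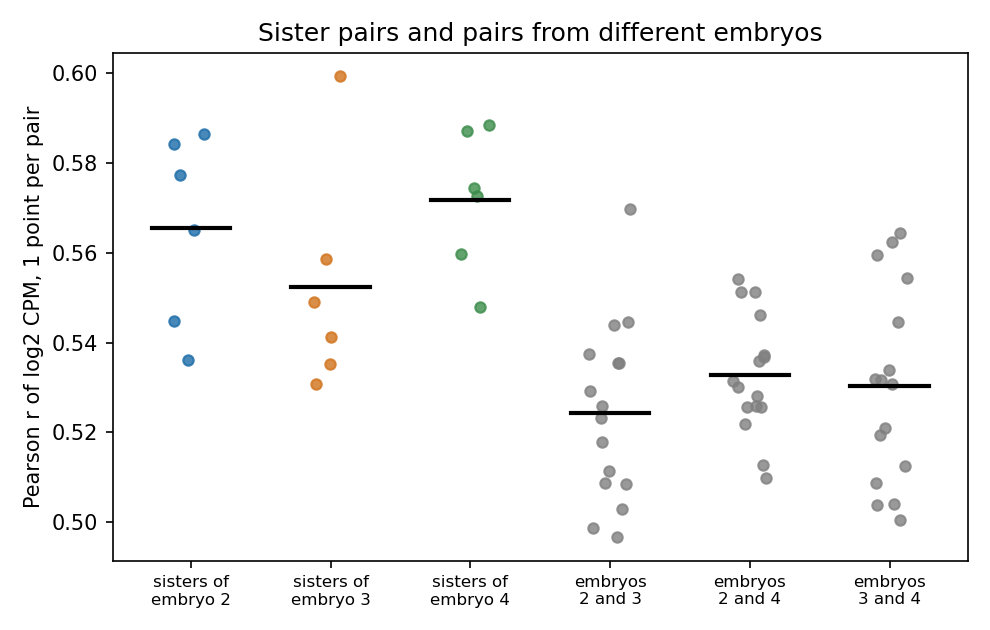
Pearson correlation of log2 CPM between pairs of blastomeres, 1 point per pair, with a bar at the mean. Sister pairs average 0.566, 0.552 and 0.572 in embryos 2, 3 and 4, above the 0.524, 0.533 and 0.530 of the pairs of embryos.

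Libraries of sisters stayed further from each other than libraries of whole embryos did. The median absolute log2 difference between a pair of libraries was 1.19 for sisters and 1.30 for blastomeres of different embryos (medians over pairs), against 0.699 for pairs of intact embryos.

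Few genes separated the embryos beyond the spread of their sisters. Of 7215 genes tested with edgeR, 11 passed an adjusted p of 0.05 between the 3 embryos (0.152%), and 692 had an unadjusted p under 0.05. By pair, 8 passed between embryos 2 and 3 (0.111% of genes; 6 higher in embryo 2, 0.0832%, and 2 lower, 0.0277%), 12 between embryos 2 and 4 (0.166%; 7 higher in embryo 2, 0.097%, and 5 lower, 0.0693%) and 2 between embryos 3 and 4 (0.0277%; 1 higher in embryo 3, 0.0139%, and 1 lower, 0.0139%). The sisters of an embryo stand for that embryo only, and the labels do not say that embryos come from separate parents, so these p-values measure the spread between these libraries. DESeq2 called 160, 226, 240 and 141 genes in the same comparisons, and without single libraries edgeR called 1 to 10 between the 3 embryos, with 9 or 10 without embryo 4 blastomere 4 or embryo 3 blastomere 4 and 5 or fewer without any other. Genes were named by rule for a pair of embryos only where the values of the 2 did not overlap, so their lack of overlap is no further support. Of all 5864 genes of mean CPM at least 10, 347 (5.92%) did not overlap between embryos 2 and 3. Between embryos 2 and 4 these were 472 (8.05%), and between embryos 3 and 4 they were 308 (5.25%).

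Without each of the 12 libraries in turn, and with DESeq2, the gene that passed each time between the 3 embryos was Cep89, a protein of the distal appendages of the centriole, on chromosome 7 (35397035 to 35438689, plus strand, GRCm38). It stood at 296, 374, 299 and 298 CPM in the sisters of embryo 2, 215, 229, 302 and 245 CPM in embryo 3 and 24.04, 27.6, 31.7 and 25.5 CPM in embryo 4. All sisters of embryo 4 lay below all others. Blastomere 2 stood above its sisters in embryo 2, and blastomere 3 in embryo 3. Embryo 2 was higher than embryo 4 by 3.55 ± 0.32 on the log2 scale (SE, n = 4 and 4 sisters; edgeR adjusted p = 0.00026), and embryo 3 higher than embryo 4 by 3.17 ± 0.31 (adjusted p = 0.000836). Elsewhere, scaled over all libraries, Cep89 ranged from 16.1 to 178 CPM in the 4 intact embryos and from 49.2 to 112 CPM in the 8 sisters of batch 2.

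Genes higher in embryo 2 included an oocyte transcript. Omt2b, abundant in oocytes and on chromosome 9, had 2103, 1921, 1649 and 2030.5 CPM in embryo 2, 330.1, 328, 224 and 785 CPM in embryo 3 and 274, 219, 184 and 403 CPM in embryo 4. All sisters of embryo 2 were above all others (log2 difference 2.23 ± 0.36 to embryo 3, edgeR adjusted p = 0.0292; 2.85 ± 0.37 to embryo 4, adjusted p = 0.00981). Omt2b passed between the 3 embryos except without embryo 2 blastomere 2 (edgeR adjusted p = 0.0555) or blastomere 4 (0.0646). Its call between embryos 2 and 3 ended in 9 of the 12 fits without 1 library (adjusted p up to 0.155), and that between embryos 2 and 4 without embryo 4 blastomere 2 (0.0665). Its near-identical neighbour Omt2a, which may share reads with it, did not pass (adjusted p = 0.0870). Scaled over all libraries, Omt2b lay at 1421 to 1848 CPM in embryo 2 and 411 to 1495 CPM in the intact 4-cell embryos. On that scale it lay at 187 to 810 CPM in embryo 3, 158 to 386 CPM in embryo 4 and 13048 to 38314 CPM in 2-cell libraries. The stress-induced gene Nupr1 averaged 828 ± 424 CPM in embryo 2, 75.3 ± 36.8 CPM in embryo 3 and 725 ± 397 CPM in embryo 4 (SD, n = 4 sisters each; embryo 2 over 3 3.47 ± 0.54, edgeR adjusted p = 0.0259).

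Spic, an Ets-family transcription factor, was likewise higher in embryo 2 than in embryo 3, with 2254, 1759, 1942 and 2022 CPM in embryo 2, 919, 711, 1028 and 629.5 CPM in embryo 3 and 1239, 1566, 1836 and 1447 CPM in embryo 4. The cytochrome oxidase subunit gene mt-Co1 and the tRNA gene mt-Tq were higher in embryo 2 than in either other embryo, with mt-Co1 at 7127 ± 1246 CPM in embryo 2, 3418 ± 307 CPM in embryo 3 and 3399 ± 818 CPM in embryo 4. mt-Tq lies on the strand opposite to its neighbours, and where counting ignores strand its reads cannot be told from theirs. Snhg6, a snoRNA host gene, passed between embryos 2 and 3 over the 12 libraries (3.44 ± 0.55, edgeR adjusted p = 0.0292). The deubiquitinase gene Uchl3 (1.94 ± 0.33) and the complex I subunit gene Ndufa2 (1.64 ± 0.28) passed between embryos 2 and 4 (edgeR adjusted p = 0.034 and 0.0353).

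Of the genes lower in embryo 2, H2ax, the histone variant phosphorylated at DNA breaks, had 1 count in all 4 sisters of embryo 2 together, against 1215 counts in embryo 3 and 1091 in embryo 4. It stood at 0.223, 0, 0 and 0 CPM in embryo 2, 34.6, 119, 78.3 and 49.8 CPM in embryo 3 and 115, 155, 51.8 and 13.9 CPM in embryo 4. The ratio of embryo 2 to embryo 3 was 0.000880 with a 95% counting interval of 2.23e-05 to 0.00491 (edgeR adjusted p = 0.0171), and to embryo 4 it was 0.000828 (2.09e-05 to 0.00462; adjusted p = 0.0177). All 4 intact 4-cell embryos and all 8 sisters of batch 2 had H2ax, at 7.32 to 89.9 and 77.8 to 365 CPM. Clk1, a kinase of splicing factors, had 37.6, 15.9, 10.9 and 52.2 CPM in embryo 2, 157, 219, 215 and 257 CPM in embryo 3 and 326, 571, 206 and 275 CPM in embryo 4, all of embryo 2 being lower. The long noncoding RNA 2310040G24Rik, with a predicted name and given here after its values were seen, averaged 20.8 ± 16.2 CPM in embryo 2, 910.0 ± 118 CPM in embryo 3 and 609.6 ± 69.1 CPM in embryo 4. Scaled over all libraries, it lay at 349 to 1234 CPM in the intact 4-cell embryos and at most 3.67 CPM in batch 2. At the 2-cell stage it lay at 115 to 460 CPM in separated blastomeres and 5.35 to 395 CPM in intact embryos.

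Smaller shifts passed for abundant, even genes. Npm1, a nucleolar chaperone, averaged 3221 ± 211 CPM in embryo 2, 3605 ± 511 CPM in embryo 3 and 5813 ± 831 CPM in embryo 4 (embryo 2 over 4 -0.84 ± 0.14, edgeR adjusted p = 0.034). Rpl41, a protein of the large ribosomal subunit, had 7487, 6738, 8261 and 8568 CPM in embryo 3 and 12681, 14185, 11721 and 11592 CPM in embryo 4 (-0.71 ± 0.11, edgeR adjusted p = 0.0479). Rb1cc1, needed to start autophagy, was lower in embryo 2 than in embryo 4 (-1.42 ± 0.25, edgeR adjusted p = 0.0398). Leaving out 1 of the 12 libraries ended the call between the 3 embryos without any of 5 libraries for mt-Tq, 8 for mt-Co1, 9 for 2310040G24Rik, 10 each for H2ax, Rpl41 and Nupr1, 11 each for Spic and Npm1 and 12 for Clk1, with edgeR adjusted p up to 0.147. Among the calls between 2 embryos, those of Snhg6, Uchl3, Ndufa2 and Rb1cc1 ended in 10, 10, 11 and 11 of the 12 fits, with edgeR adjusted p up to 0.146 for Snhg6 and 0.184 for each of the others. The call of Ndufa2 also ended without the expression filter (0.105). Calls of Nupr1, Spic and H2ax between embryos 2 and 3 ended in 7, 6 and 6 fits, those of H2ax, Clk1 and Npm1 between embryos 2 and 4 in 5, 5 and 7, and that of Rpl41 between embryos 3 and 4 in 11. For mt-Tq the 5 libraries were blastomeres 2 and 4 of embryo 2, 2 and 3 of embryo 3 and 3 of embryo 4.

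Another set of genes was all or none by embryo: 145 genes had a count in all 4 sisters of one embryo and in no sister of another, which is 0.782% of the 18545 genes with a count. For 66 of them the lowest count among the 4 sisters was 1, and for 24 it was at least 20. With the highest lowest count, chosen after the values were seen, were Tsix, Sra1 and Ubr1. Sra1, a gene of a noncoding RNA coactivator and a protein, had 40.8 to 89.1 CPM in embryo 3, none in embryo 4 and 0 to 15.9 CPM in embryo 2. Ubr1, a ubiquitin ligase of the N-degron pathway, had 28.3 to 68.3 CPM in embryo 4, none in embryo 2 and 0.298 to 10.998 CPM in embryo 3.

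Y-linked transcripts set all sisters of embryo 4 apart, while Xist and Tsix varied among sisters. Summed over 7 Y-linked genes, the sisters of embryo 4 had 217, 104, 263 and 137 counts, against 0 to 4 counts in each sister of embryos 2 and 3. Which Y-linked gene was seen differed among the sisters of embryo 4, with Ddx3y, an RNA helicase, at 31.1, 0, 0 and 31.1 CPM and the translation factor gene Eif2s3y at 0, 5.83, 62.5 and 9.19 CPM. Xist, the RNA that coats the inactive X, had no count in embryo 4, 0, 28.1, 144 and 2.78 CPM in embryo 2 and 7.99, 142, 0 and 0 CPM in embryo 3. Its antisense partner Tsix, whose reads cannot be told from those of Xist where counting ignores strand, had 43.6, 45.7, 55.4 and 167 CPM in embryo 2 and 16.7, 39.5, 11.9 and 0 CPM in embryo 3. At least 1 of both was seen in 7 of the 8 sisters of embryos 2 and 3, all except embryo 3 blastomere 4.

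Sisters of batch 1 were further apart than 2-cell sisters by one measure. After thinning to 2019180 counts, the median absolute log2 difference between sisters, averaged over the pairs of an embryo, was 1.10 ± 0.0642 in the 3 embryos of 4-cell batch 1 and 0.974 ± 0.0735 in 5 separated 2-cell embryos (SD). The difference of 0.130 had a two-sided exact permutation p of 0.0179. It was 0.0383 (p = 0.446) among genes of at least 100 CPM and 0.0340 (p = 0.125) with 1 minus the correlation as distance. The call ended without 2-cell embryo 1, 2 or 4 (differences 0.135, 0.137 and 0.134, exact p = 0.0571 each) or 4-cell embryo 3 (0.0941, exact p = 0.190). Stage and the amount of RNA in a cell cannot be told apart here. Against batch 2 the distance was 1.10 ± 0.0642 in batch 1 (n = 3) and 0.519 ± 0.0179 in batch 2 (n = 2), with no overlap; the exact permutation p of 0.1 is the smallest that 3 against 2 embryos allow.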

How the data were processed

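Total RNA of single blastomeres and whole embryos was copied to cDNA from its poly(A) tails, amplified by PCR and cut into libraries with a transposase, per the labels' protocols. The deposited values are estimated counts per gene (expected counts); the submitters' processing notes name Trim Galore 0.6.10, STAR 2.7.3a, RSEM 1.2.28 and the builds GRCm38 and mm10, without their roles. The annotation and strand setting are not given in the sources used here. The counts were rounded to whole numbers, as 9.95% of non-zero values in the 12 libraries were not whole. There are no molecular identifiers, so intervals cover counting error only.

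Levels are CPM after TMM scaling over the 12 libraries, with a prior count of 2 for log2 values. Spread and correlations used genes of mean CPM at least 10. Embryos were compared with the quasi-likelihood test of edgeR 4.0.16 after its expression filter and Benjamini-Hochberg adjustment; DESeq2 1.42.0, other filters, scalings and depths, a replicate block and each library left out were alternatives. Sister similarity and distances had exact permutation tests. Positions came from GENCODE for GRCm38. The edgeR and sister similarity tests, the intraclass correlation, the first component and the gap rule were checked on made-up values with known answers.

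Genes were named by rules of size: the 4 highest and 4 lowest log2 changes per pair of embryos among called, non-overlapping genes of mean CPM at least 20, the 10 most and 10 least even genes of mean CPM at least 50, the widest gaps and detection differences per embryo, the genes most like chosen regulators, and list members. The members, gene lists and rules were chosen with earlier results of these data known. One gene named by these rules is not reported here.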

Additional observations from a re-analysis of the deposited data

Results flagged for a closer look

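In 12 of 138 groups of 4 sisters, 1 sister stood apart from the other 3 by Dixon's criterion (the gap to the nearest sister over the whole range). Chance flags about 1 in 20 groups of normally distributed values, but that rate is no yardstick here: in 4 of the 12 the other 3 sisters had no count, which meets the criterion by construction, and several of the genes had been picked for their spread among sisters. Genes were taken on the log2 CPM scale.

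High in a single sister were Sox21 in embryo 2 blastomere 1 (67.9 CPM), Prdm14 in embryo 2 blastomere 2 (58.9 CPM) and in embryo 3 blastomere 3 (8.63 CPM), each with no count in the other sisters. H2ax stood apart in embryo 2 blastomere 1 at 0.223 CPM, which is 1 count, and Cep89 in embryo 2 blastomere 2 at 374 CPM, against 296 to 299 CPM in its sisters.

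Low in a single sister were Tfap2c, an AP-2 transcription factor, in embryo 3 blastomere 4 (0 CPM), Klf5, a Krüppel-like factor of the trophectoderm, in embryo 3 blastomere 2 (67.4 CPM), and Exosc9 in embryo 2 blastomere 4 (0 CPM) and in embryo 3 blastomere 1 (0.484 CPM). Mien1 had 0 CPM in embryo 2 blastomere 1, and Tma7 had 774 CPM in embryo 3 blastomere 2. The library of embryo 4 blastomere 2 held 2404473 counts, the fewest of its embryo.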

How the results depend on the processing

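The higher similarity of sisters kept its direction and its p under the alternatives run, at 0.0321 to 0.0387 without single libraries. Counts of genes differing between embryos did not. The main count between the 3 embryos was 11; it was 25 without a filter, 24 with at least 10 counts in 8 libraries, 160 with DESeq2, 39 with all 30 single-blastomere libraries in the fit, and 1 to 10 without single libraries. For embryos 2 and 3 (8) these were 17, 19, 226, 4, and 0 to 8; for embryos 2 and 4 (12) they were 26 without a filter, 240 with DESeq2, 23 with all 30 libraries, and 1 to 15; for embryos 3 and 4 (2) they were 6, 141, 0, and 1 to 3, and 1 at the depth of the shallowest library. The 11 genes called between the 3 embryos were all among the calls without a filter, with the stricter filter, with DESeq2 and at equal depth, and 7 of 11 with all 30 libraries, where Cep89 was no longer called between embryos 3 and 4 (edgeR adjusted p = 0.0919). The cause was not tested.

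Correlations of deviations were -0.00702 to 0.0464 over the 12 same-numbered pairs and -0.0441 to 0.0239 over pairs of other numbers, all under the 0.1 needed to treat numbers as pairs. Among the blastomeres of other embryos, 7 of 12 libraries were closest to one of their own number, which 2 of the 8 blastomeres of the other embryos share. These 12 calls are not independent and no test of them was made, so numbers are not read as matching across embryos. A fit with the replicate block called 4 genes between the 3 embryos (Cep89, Omt2b, mt-Co1 and mt-Tq), 5 between embryos 2 and 3, 3 between embryos 2 and 4 and 1 between embryos 3 and 4; Snhg6 (edgeR adjusted p = 0.143), Uchl3 and Ndufa2 (0.0697 each) and Rb1cc1 (0.0821) were then not called.

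The first component of sister deviations was 15.7% among genes of mean CPM at least 100, and 14.95 to 15.5% without single libraries, where fewer dimensions share the variance. The median intraclass correlation was 0.124 at mean CPM at least 100 and 0.0179 to 0.0328 without single libraries. The sister distance against 2-cell embryos was 0.0383 (exact p = 0.446) at mean CPM at least 100, 0.0340 (exact p = 0.125) with 1 minus the correlation, and 0.0941 to 0.156 without single embryos. Two-against-two genes, 1609 per embryo on average, numbered 2483 with a 2-fold gap and 513 with 100 counts. A prior count of 0.5 raised the mean sister SD of 9 of the 10 most uneven genes beyond their spread.

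Genes at 30 to 100 CPM in intact embryos were seen in all 4 sisters in 80.8% of cases and those at 100 to 300 CPM in 99.2%. With 1 library per blastomere, absence of a single gene from a sister cannot be told apart from missed detection at any level.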

Other observations

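Over members of mean CPM at least 10, the median sister SD (log2, mean over embryos) was 0.73 for proteasome subunits, 0.81 for heat shock and chaperone genes, 0.98 for ribosome biogenesis genes, 1.11 for G2/M genes, 1.43 for chromatin and DNA methylation genes, 1.5 for S phase genes, 1.93 for adhesion, junction and polarity genes, 2.04 for maternal oocyte transcripts and 2.18 for 2-cell zygotic genes, against 1.77 for all genes. These medians follow level in part. Set against the trend of SD on level, the shares of members below it were 19 of 35 for proteasome subunits (54.3%), 24 of 34 for heat shock genes (70.6%), 49 of 85 for ribosome biogenesis (57.6%), 24 of 48 for G2/M (50%), 22 of 43 for chromatin genes (51.2%), 37 of 57 for S phase (64.9%), 17 of 26 for adhesion genes (65.4%), 12 of 37 for maternal transcripts (32.4%) and 5 of 10 for 2-cell zygotic genes (50%), against 51.6% of all genes.

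The arginine methyltransferase gene Prmt5 had 44.1, 31.4, 0 and 116 CPM in embryo 2, 127, 93.2, 0 and 108 CPM in embryo 3 and 74.1, 20.6, 154 and 35.6 CPM in embryo 4. Blastomere 3 was at 0 in embryos 2 and 3 and highest in embryo 4. Nampt, an enzyme of NAD synthesis, had 116, 170, 0.298 and 0 CPM in embryo 3, against 122 to 151 CPM in all 4 sisters of embryo 2.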
